A study of Mus musculus with 26 samples.

Results

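The choroid plexus, the epithelial tissue that secretes cerebrospinal fluid into the brain ventricles, was compared between the early night and the end of the night. The comparison was made in sham-operated adult male C57Bl6J mice (Ctrl), and it used 8 of the 26 libraries of the series. Each library was placed in its group by the circadian time (CT) in its label. Late night and dawn held CT20, CT44, CT0 and CT24, and early night held CT12, CT36, CT16 and CT40, so that each group had 4 mice from 2 cycles. The choroid plexus of the 4th ventricle was taken with pincers from 1 mouse at each time. The mice had been housed singly in a cycle of equal light and dark spans before the release into darkness, and CT0 was the hour at which the lights would have come on. The mouse at CT0 was therefore taken as constant darkness began, after an ordinary night, and before the early night of its own cycle. A second set of 8 libraries at the same hours came from adult male C57Bl6J mice whose suprachiasmatic nuclei, the site of the central clock, had been destroyed electrolytically (SCNx). Both arms had surgery, and the labels give no transgene for either. The spread within a group of 4 mice holds the differences between hours and between cycles as well as those between mice, because no hour was repeated within a cycle.

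Circadian clocks run on a loop in which the activators BMAL1 (encoded by Arntl), CLOCK and NPAS2 bind E-box sequences and switch on Per, Cry, Nr1d and PAR bZIP genes, whose products later act back on the activators. REV-ERB repressors, the products of Nr1d1 and Nr1d2, and ROR activators compete for RORE sequences near Arntl and Npas2. Cells of the choroid plexus also express this loop.

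Values are read counts scaled to library size (CPM), and a group of 4 libraries is given as mean ± SD. Differences are log2 fold changes, positive where the level was higher in late night and dawn, ± the standard error of the fit. A gene was called where the quasi-likelihood test of edgeR gave an adjusted p (Benjamini-Hochberg) under 0.05 over the 13655 genes with a mean of at least 1 CPM. The 8 Ctrl libraries held between 38751162 and 47335226 counts, and 10 markers of choroid plexus epithelium summed to 153000 to 166000 CPM in each of them. Ctrl CT16 held liver transcripts. A list of 24 hepatocyte genes summed to 4180 CPM there and to 34.9 to 98.7 CPM in the other 7 libraries, and in SCNx CT0 it reached 15100 CPM. All 23 hepatocyte genes tested lay lower in late night and dawn in Ctrl with an unadjusted p under 0.05, and 0 of them were called by edgeR (0 also with CT16 left out, which left 7 to test). Markers of the vessel wall overlapped between the groups but reached higher in early night. The smooth muscle list of 5 genes summed to 146 to 274 CPM in early night and to 152 to 179 CPM in late night and dawn, and the endothelial list of 4 genes to 91.2 to 178 CPM and 95.7 to 121 CPM. Fitted changes were also downward for 6 of 6 astrocyte, 5 of 5 macrophage and 5 of 5 blood genes tested. The same held for 4 of 5 fibroblast and 3 of 4 ependymal genes. Upward changes were fitted for 4 of 5 neuron, 3 of 4 oligodendrocyte and 7 of 10 epithelial genes. In bulk tissue, fewer cells of a type and less RNA per cell cannot be told apart.

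Between early night and late night and dawn, 44 genes changed, 0.322% of those tested. Of these, 24 rose (0.176%) and 20 fell (0.146%). In all 44 the 4 late libraries lay entirely above or entirely below the 4 early libraries. That alone fixes the lack of overlap within the cycle from CT0 to CT20 and within the cycle from CT24 to CT44. The check by cycle therefore could not fail for these genes and adds nothing to the call. With the cycle fitted as a block, 11 of the 44 kept their call. Over all genes, 4.42% had all 4 late libraries above the early ones and 4.83% had all 4 below, so that lack of overlap alone was far more common than a call. An unadjusted p under 0.05 was reached by 2521 genes (18.5%), of which 1147 lay higher (8.4%) and 1374 lower (10.1%). The fitted changes of the called genes ran from 0.284 to 3 log2 units in size, and 10 of the 44 exceeded 1. Their median size was 0.573, against 0.0992 over all genes tested.

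**Figure D1:**
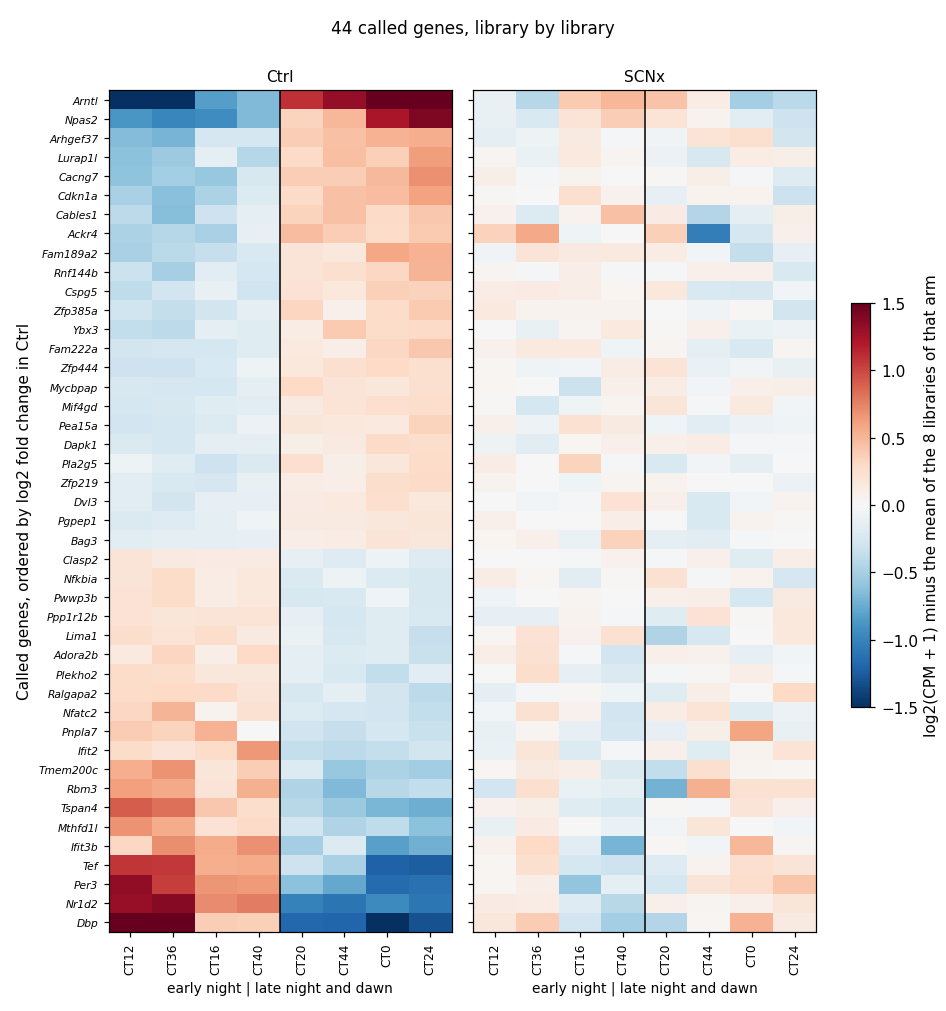
Log2(CPM + 1) of the 44 called genes (rows, ordered by fold change in Ctrl) in each library (columns, CT12 and CT36 first, then CT16 and CT40, CT20 and CT44, CT0 and CT24), minus the mean of the 8 libraries of that arm, with Ctrl left and SCNx right and colours cut at ±1.5. In Ctrl every row changes colour at the vertical line between early night and late night and dawn, and CT16 and CT40 are often paler than CT12 and CT36, whereas in SCNx no gene has its late libraries beyond its early ones in the direction seen in Ctrl, and Zfp385a has them beyond in the opposite direction.

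The number of calls depended on single mice. Without CT24 it was 1, without CT12 it was 5, without CT0 or CT36 it was 7 each, without CT20 it was 9 and without CT44 it was 14. Without CT16 it rose to 249 and without CT40 to 409, and all 44 genes were among the calls in both cases. Nr1d2 was called with any of the 8 libraries left out. Cacng7, Per3 and Rbm3 were called in 7 of the 8 such fits, each losing the call without CT24 only (adjusted p 0.059, 0.0721 and 0.0651 with edgeR). For 28 of the 44 genes, Arntl, Dbp and Tef among them, the call was kept only without CT16 or without CT40. For the called genes named below by rule, the direction of the change was the same in every one of these fits. Their lack of overlap left little room for any other outcome, so this is no measure of stability.

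**Figure D2:**
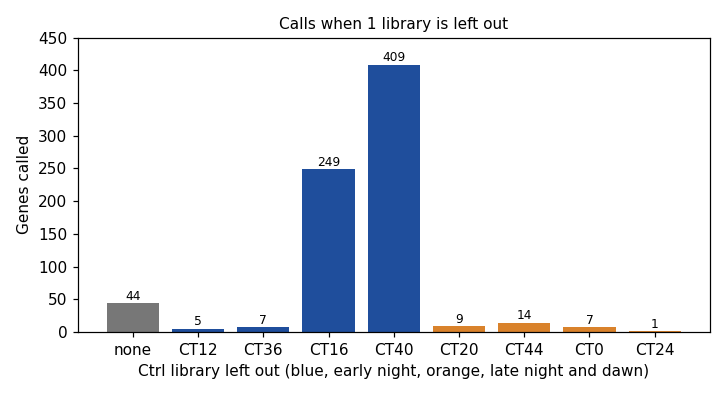
Number of genes called between late night and dawn and early night (vertical axis) with all 8 Ctrl libraries (grey) or with the named library left out (blue, early night, orange, late night and dawn). The count falls to between 1 and 14 without any of 6 libraries and rises to 249 without CT16 and to 409 without CT40.

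Among called genes, the largest falls belonged to clock genes that E-box activators switch on. All 14 of the list of Nr1d, PAR bZIP, Per and E-box-driven genes lay lower in late night and dawn at an unadjusted p under 0.05 (10.1% of all genes did), 12 of the 14 without overlap (4.83%), and 4 were called, Nr1d2, Per3, Tef and Dbp. The median log2 fold change of the list was −1.194, against 0.004 over all genes. Without CT16, 9 of the 14 were called lower, against 129 of all 13498 genes tested in that fit, and the median was −1.289.

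Nr1d2 (ENSMUSG00000021775), which encodes the repressor REV-ERBβ, stood at 203, 134, 212 and 140 CPM at CT12, CT16, CT36 and CT40, and at 41.7, 39.9, 38 and 37.8 CPM at CT0, CT20, CT24 and CT44. It fell 4.36-fold, from 172 ± 41.1 to 39.3 ± 1.84 CPM, with a log2 fold change of −2.12 ± 0.15 and the smallest adjusted p of all genes, 0.00269. The early level was itself split, high at CT12 and CT36 and lower at CT16 and CT40, whereas the 4 late mice lay within 4 CPM of each other. Its relative Nr1d1 (REV-ERBα) ran ahead of it. Nr1d1 was at 42.3 and 50.1 CPM at CT12 and CT36, at 12.7 and 7.22 at CT16 and CT40, at 2.54 and 2.51 at CT20 and CT44, and again at 10.7 and 13.7 CPM at CT0 and CT24. The early and late groups of Nr1d1 overlapped, and with a log2 fold change of −1.93 ± 0.74 it was not called (adjusted p 0.212).

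Per3 (ENSMUSG00000028957), a period gene, stood at 53.4, 33.1, 43.2 and 32.8 CPM at CT12, CT16, CT36 and CT40, and at 8.69, 13.1, 8.94 and 11.7 CPM at CT0, CT20, CT24 and CT44. It fell 3.82-fold (log2 −1.93 ± 0.19, adjusted p 0.00972). The other period genes, which encode the repressors of the loop, lay lower late without a call. Per1 went from 62.9 ± 15.8 to 33.8 ± 5.06 CPM (adjusted p 0.069). Per2 stayed high for longer, at 48.1 and 43.6 CPM at CT20 and CT44, and was down at 18.4 and 17.6 CPM only at CT0 and CT24 (adjusted p 0.172). Cry2 went from 48.1 ± 6.39 to 31.5 ± 5.86 CPM (adjusted p 0.0909).

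The PAR bZIP factors Dbp, Tef and Hlf are outputs of the loop that bind D-boxes. Dbp (ENSMUSG00000059824) had the largest fold change of all called genes. It was at 130 and 138 CPM at CT12 and CT36, at 35.7 and 35.5 at CT16 and CT40, and at 8.69 to 11.5 CPM in the 4 late libraries, an 8-fold fall of the mean (log2 −3 ± 0.48, adjusted p 0.0499). Most of the decline of Dbp therefore came inside the early night. Tef (ENSMUSG00000022389) fell in steps, from 205 and 204 CPM at CT12 and CT36 to 142 and 143 at CT16 and CT40, 78.3 and 69.2 at CT20 and CT44, and 41.3 and 40.7 at CT0 and CT24 (log2 −1.59 ± 0.24, adjusted p 0.0416). The mice of the same hour in the 2 cycles differed by no more than 10 CPM at any of these 4 points. Hlf went from 63.8 ± 15.6 to 35.8 ± 3.13 CPM (adjusted p 0.0674).

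The remaining members encode repressors of the E-box activators and other outputs. Ciart, a repressor of CLOCK and BMAL1, was at 16.4 and 17.6 CPM at CT12 and CT36, at 2.08 and 1.97 CPM at CT16 and CT40, and under 0.645 CPM or at it in the 4 late libraries. Its log2 fold change was −4.35 ± 0.86, larger than that of any called gene, and the adjusted p of 0.0674 missed the threshold. Bhlhe41 went from 27.8 ± 11.7 to 10.4 ± 3.25 CPM (adjusted p 0.0909) and Bhlhe40 from 42.6 ± 10.4 to 32.1 ± 4.94 CPM with overlap (adjusted p 0.261). Wee1, a kinase that holds back mitosis, went from 15.1 ± 0.945 to 8.66 ± 2.17 CPM (adjusted p 0.0694), and the deubiquitinase gene Usp2 from 213 ± 34.4 to 165 ± 12.1 CPM (adjusted p 0.149).

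Sequence around the start of these genes was taken from RefSeq windows of GRCm38.p6, 250 bases before to 50 after each start. They were matched by symbol for 40 of the 44 called genes. The files use GRCm39, so these positions are of another build than the counts. The letters shown here are the E-box CACGTG, the D-box TTATGTAA and the RORE core TAGGTCA, searched on both strands. Capitals mark each match in the reading direction of its gene. The search also covered the cAMP response element (CRE), the heat shock element and 2 endoplasmic reticulum stress elements. Of the 40 called genes with a window, 4 held a heat shock element (10%) and 2 a CRE (5%). Of the tested genes with a window, 6.91% and 3.49% did. None of the 40 held an endoplasmic reticulum stress element. An E-box lay in 7.15% of all 32851 windows, a D-box in 0.938% and a RORE core in 2.61%. Counted per gene, 11.5% of the 10456 tested genes with a window held an E-box, and so did 4 of the 40 called genes (10%). Of these 4, 3 fell (Pnpla7, Tef and Tspan4) and 1 rose (Fam189a2). Cry1, which was not called and whose groups overlapped, also held an E-box. Among the matched genes of the list above, 4 of 11 held an E-box (Bhlhe41, Ciart, Per1 and Tef) and Per3 held 2 D-boxes. The E-box windows are shown to set the spacing in Ciart (116, 58 and 44 bases before the start), where all 3 lie close together, beside the single ones of Per1, of the called gene Tspan4 and of both listed starts of Tef. The D-boxes of Per3 begin 205 and 158 bases before its start.
Ciart, chr3:95882247-95882364, minus strand: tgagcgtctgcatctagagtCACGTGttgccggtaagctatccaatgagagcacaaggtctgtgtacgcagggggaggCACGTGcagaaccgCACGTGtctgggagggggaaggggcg
Per1, chr11:69098763-69098808, plus strand: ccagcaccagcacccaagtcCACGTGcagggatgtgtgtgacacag
Tef, chr15:81802526-81802571, plus strand: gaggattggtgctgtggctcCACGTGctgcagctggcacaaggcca
Tef, chr15:81811256-81811301, plus strand: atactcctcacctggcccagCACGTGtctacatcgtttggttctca
Tspan4, chr7:141476309-141476354, plus strand: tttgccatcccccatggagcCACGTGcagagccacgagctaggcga
Per3, chr4:151044796-151044890, minus strand: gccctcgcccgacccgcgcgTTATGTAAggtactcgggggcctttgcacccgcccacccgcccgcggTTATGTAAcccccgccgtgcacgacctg

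The activators of the loop moved the other way. Of the 5 genes tested of the positive arm, 2 were called, Arntl and Npas2, and both rose. Arntl (ENSMUSG00000055116), which encodes BMAL1, stood at 2.6, 6.65, 2.02 and 7.63 CPM at CT12, CT16, CT36 and CT40, and at 39.5, 28, 40 and 33 CPM at CT0, CT20, CT24 and CT44. This was a 7.44-fold rise from 4.72 ± 2.83 to 35.1 ± 5.73 CPM (log2 2.9 ± 0.4, adjusted p 0.0323), and no early mouse came near a late one. Npas2 (ENSMUSG00000026077), a relative of Clock, was flat at 4.96 to 6.43 CPM through the early night, reached 13.8 and 15.6 CPM at CT20 and CT44, and then 26.5 and 30 CPM at CT0 and CT24 (log2 1.97 ± 0.25, adjusted p 0.0243). Clock itself went from 131 ± 29.1 to 194 ± 9.15 CPM without overlap (adjusted p 0.102). Of the ROR activators, Rora went from 75.5 ± 3.69 to 63.2 ± 1.23 CPM (adjusted p 0.0674). Rorb, with a mean of 0.48 CPM, was not tested.

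Nfil3, which encodes a repressor that competes with the PAR bZIP factors for D-boxes, was at 6.68, 9.8, 7.34 and 13.1 CPM at CT12, CT16, CT36 and CT40 and at 18.8, 22.1, 18.1 and 24.2 CPM at CT0, CT20, CT24 and CT44. The groups did not overlap, and the adjusted p of 0.0528 just missed the threshold (log2 1.18 ± 0.21). Cry1 was highest at CT20 and CT44, 33.7 and 34.8 CPM, and at CT0 and CT24 it was back at 20.3 and 23.2 CPM, within the early range of 18.8 to 30.8 CPM (adjusted p 0.657). Arntl2, with a mean of 0.37 CPM, was not tested. The RORE core was found in the windows of Arntl, where it begins 30 bases past the start, of Nfil3, 12 bases before it, and of the called genes Zfp219, 33 bases before it, and Mif4gd. The first 3 are shown as examples, and Mif4gd, not shown, also rose. Counted per gene, 3 of the 40 called genes with a window held a RORE core (7.5%), against 2.18% of the tested genes with a window. The window of Npas2 held none. The RORE core was among several elements searched, and no difference in share was tested. Binding of REV-ERB or ROR proteins to these sequences was not tested.
Arntl, chr7:113207531-113207557, plus strand: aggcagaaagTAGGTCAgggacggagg
Nfil3, chr13:52981040-52981071, minus strand: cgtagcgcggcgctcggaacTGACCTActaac
Zfp219, chr14:52019720-52019766, minus strand: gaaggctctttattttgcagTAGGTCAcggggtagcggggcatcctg
In Nfil3 the match is on the opposite strand and therefore reads TGACCTA.

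**Figure D3:**
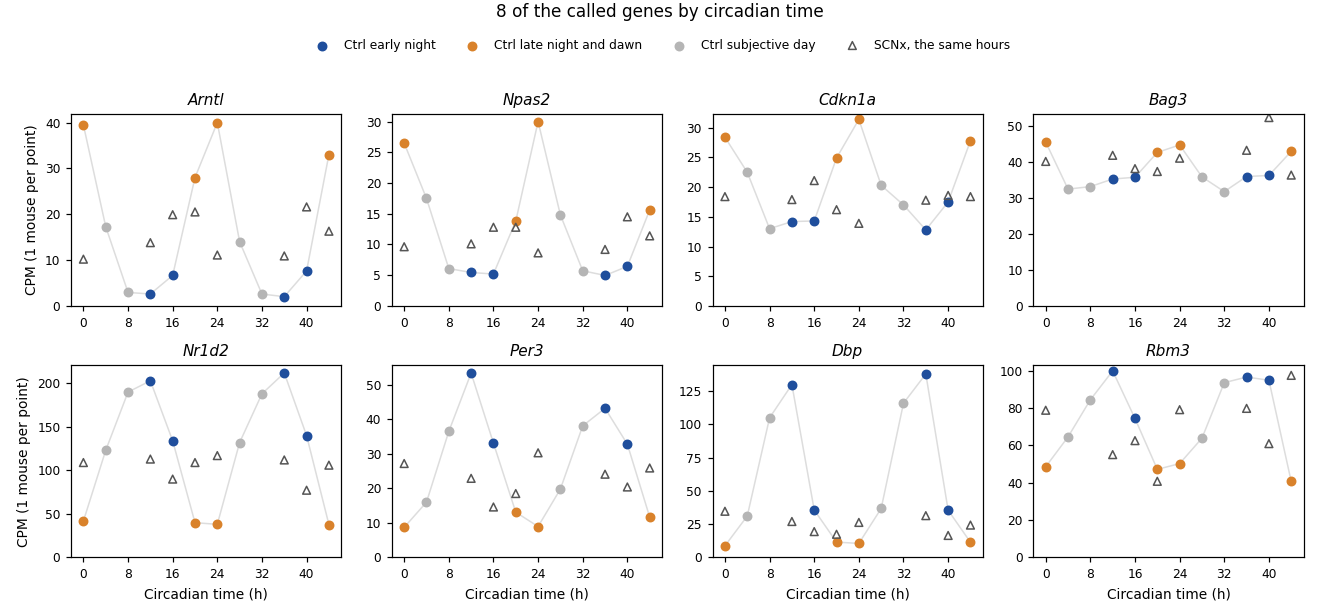
CPM of 8 called genes (1 panel each) against circadian time in hours, 1 mouse per point, with Ctrl early night in blue, Ctrl late night and dawn in orange, Ctrl subjective day in grey and SCNx at the same hours of the night and dawn as open triangles. In the upper row the orange points lie above the blue ones and in the lower row below them, in both cycles, and the SCNx points of each window overlap.

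Outside the clock, the genes that rose had varied roles. Cdkn1a (ENSMUSG00000023067), which encodes the cell cycle inhibitor p21, went from 14.2, 14.3, 12.8 and 17.5 CPM at CT12, CT16, CT36 and CT40 to 28.4, 24.9, 31.4 and 27.8 CPM at CT0, CT20, CT24 and CT44. Its log2 fold change was 0.94 ± 0.1 (adjusted p 0.0157), with 0.9 in the cycle from CT0 and 0.98 in the cycle from CT24. Cacng7 (ENSMUSG00000069806), a regulatory subunit of calcium channels and AMPA receptors, rose from 35 ± 4.33 to 69 ± 7.4 CPM (log2 0.98 ± 0.096, adjusted p 0.00972). Ackr4, a receptor that takes up chemokines without signalling through G proteins, rose from 35.3 ± 4.55 to 59.7 ± 3.22 CPM (adjusted p 0.0157). The largest folds after Arntl and Npas2 were those of Arhgef37, from 1.27 ± 0.374 to 3.28 ± 0.232 CPM (adjusted p 0.0499), Cacng7 and Lurap1l, from 4.94 ± 0.912 to 9.76 ± 1.13 CPM (adjusted p 0.0381).

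Mycbpap and Mif4gd changed by less and with little spread. Mycbpap rose from 47.4 ± 1.95 to 65.2 ± 2.65 CPM (adjusted p 0.00972). Mif4gd, whose product takes part in the translation of histone mRNA, rose from 17 ± 0.569 to 23.3 ± 0.949 CPM (adjusted p 0.0216). Dvl3, a cytoplasmic transducer of Wnt signals, rose from 67 ± 3.31 to 84.8 ± 3.59 CPM (adjusted p 0.0414). Bag3, a co-chaperone of HSP70, rose from 35.9 ± 0.414 to 44 ± 1.39 CPM, a 1.23-fold change, with the early mice within 1 CPM of each other (log2 0.3 ± 0.043, adjusted p 0.0358). The other genes that rose, all named with their values seen, were Zfp385a, Cables1, Pea15a, Pgpep1, Fam189a2, Fam222a, Zfp444, Cspg5, Zfp219, Pla2g5, Rnf144b, Dapk1 and Ybx3, with log2 fold changes between 0.32 and 0.76.

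Of the genes that fell outside the clock, Rbm3 (ENSMUSG00000031167), which encodes an RNA-binding protein induced by mild cold, had the smallest adjusted p. It stood at 100, 74.5, 96.7 and 95 CPM at CT12, CT16, CT36 and CT40 and at 48.6, 47.2, 50.3 and 40.7 CPM at CT0, CT20, CT24 and CT44, a 1.96-fold fall (log2 −0.97 ± 0.094, adjusted p 0.00972). Its relative Cirbp ran from 36 and 37.2 CPM at CT36 and CT12 to 10.7 CPM at CT44, but its groups overlapped and it was not called (adjusted p 0.236). Of the 34 cold-inducible and splicing genes tested, Rbm3 was the 1 called, and the median of the list was −0.058.

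Tspan4 (ENSMUSG00000025511), a tetraspanin, fell 2.39-fold, from 66.3, 46.5, 62.7 and 42 CPM at CT12, CT16, CT36 and CT40 to 20.5 to 25.8 CPM in the late libraries (log2 −1.26 ± 0.15, adjusted p 0.0221). Its early level was split like those of Nr1d2 and Tef. Ppp1r12b, a targeting subunit of myosin phosphatase, had an early range of 21.6 to 22.2 CPM and a late range of 15.7 to 17.3 CPM (adjusted p 0.0221). Ifit3b, a gene induced by interferon, fell from 4.19 ± 0.62 to 1.39 ± 0.471 CPM (adjusted p 0.0435), and Ifit2 of the same family, named with its values seen, from 5.31 ± 0.963 to 2.86 ± 0.143 CPM (adjusted p 0.0416). Nfatc2, a transcription factor activated by calcineurin, fell from 43.7 ± 5.99 to 29.3 ± 1.44 CPM, and Nfkbia, which encodes the NF-κB inhibitor IκBα, from 24.9 ± 1.2 to 19 ± 1.02 CPM (adjusted p 0.0499 for each). The other genes that fell, again named with values seen, were Mthfd1l, Tmem200c, Ralgapa2, Pnpla7, the adenosine receptor gene Adora2b, Plekho2, the actin-binding Lima1, Pwwp3b and Clasp2, with log2 fold changes from −1.32 to −0.28.

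The change was not a single step. Among the genes that rose, 15 of 24 already lay higher at CT16 and CT40 than at CT12 and CT36 (19.8% of all genes did), and among those that fell 13 of 20 already lay lower (20.1%). Within the late window, 16 of the 24 genes that rose were higher at CT0 and CT24 than at CT20 and CT44 (22.8% of all genes) and 0 were lower. Of the 20 that fell, 7 were higher at CT20 and CT44 than at CT0 and CT24 (17.9% of all genes) and 2 were lower. These counts rest on 2 mice against 2 at each point.

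Of 38 genes of protein folding in the endoplasmic reticulum (ER), 0 were called by edgeR. At an unadjusted p under 0.05, 12 lay higher and 2 lower, against 8.4% and 10.1% of all genes, and the median of the list was 0.14. Sdf2, part of an ER chaperone complex, had the smallest p and went from 62.6 ± 2.03 to 73.1 ± 3.69 CPM (adjusted p 0.0694). For abundant chaperones the larger step lay within the early night. Hsp90b1 (GRP94) was at 879 and 970 CPM at CT12 and CT36, at 1580 and 1580 CPM at CT16 and CT40, at 2070 and 1980 CPM at CT20 and CT44, and at 1670 and 1830 CPM at CT0 and CT24 (adjusted p 0.166). Calr (calreticulin) ran from 696 and 780 CPM through 1430 and 1380 CPM to 1910 and 1760 CPM and then 1560 and 1690 CPM at the same 4 points (adjusted p 0.166). Across the list, 27 of 38 genes lay higher at CT16 and CT40 than at CT12 and CT36 (19.8% of all genes). The median step between these points was 0.31 log2 units, the next step to CT20 and CT44 was 0.04 and the last, to CT0 and CT24, was −0.07. Without CT16, 18 of 37 genes lay higher and 1 lower at an unadjusted p under 0.05, and 0 were called. Over all 13498 genes tested in that fit, 1230 lay higher and 1406 lower.

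**Figure D4:**
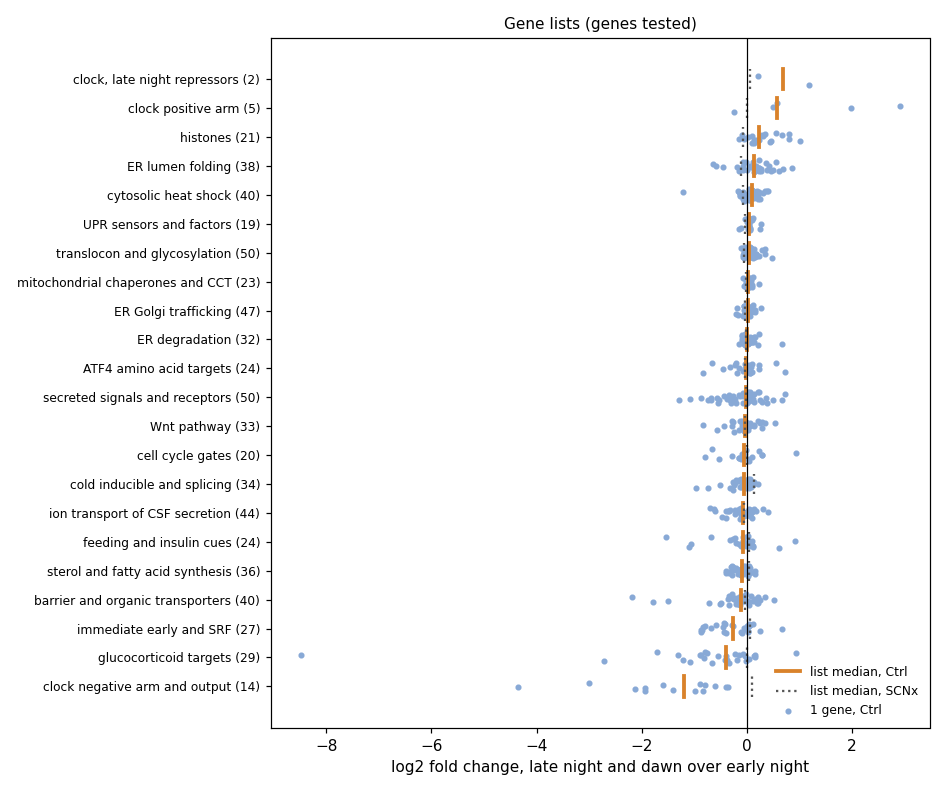
Log2 fold change between late night and dawn and early night (horizontal axis) for the genes of 22 lists (number tested in brackets), each blue point 1 gene in Ctrl, with the list median in Ctrl (orange bar) and in SCNx (dotted bar). The clock outputs have the lowest median in Ctrl, −1.194, and in SCNx the medians of the lists lie between −0.108 and 0.137. The point at −8.48 among the glucocorticoid targets is Lcn2, which was at 170 CPM at CT16 and at 2.22 CPM or less in the other 7 libraries.

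Cytosolic chaperones were represented among the calls by Bag3 alone, 1 of 40 tested, and the list median was 0.097. In 20 of the 40 the level at CT20 and CT44 was above that at CT0 and CT24 (17.9% of all genes), and in 1 it was below (22.8%). Histone genes were not called, but 11 of 21 lay higher late at an unadjusted p under 0.05 (8.4% of all genes) and 0 lower (10.1%), with a median of 0.228. H3c4 went from 1.05 ± 0.165 to 1.83 ± 0.134 CPM (adjusted p 0.0848). In 15 of the 21 histone genes the level at CT20 and CT44 was the highest of the 4 points (25% of all genes). Some of the histone genes are near-identical copies, and how reads were divided between those copies is uncertain.

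Genes of sterol and fatty acid synthesis had their highest level at CT16 and CT40 in 29 of 36 cases (19.4% of all genes). At an unadjusted p under 0.05, 7 lay lower late (10.1% of all genes) and 1 higher (8.4%), and 7 had all 4 late libraries below the early ones (4.83%). None was called by edgeR. The median step of the list was 0.2 log2 units from CT12 and CT36 to CT16 and CT40 and −0.18 from there to CT20 and CT44.

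Of 29 glucocorticoid-responsive genes tested, 17 lay lower late at an unadjusted p under 0.05 and 2 higher, against 10.1% and 8.4% of all genes, and the median was −0.39. Without overlap, 9 lay lower and 2 higher, against 4.83% and 4.42% of all genes. Glucocorticoids are adrenal hormones whose level in nocturnal rodents peaks around the start of the night. Lcn2 (170 CPM) and Tat (32.5 CPM), the latter also on the hepatocyte list, were high at CT16 alone, with at most 2.22 and 2.95 CPM elsewhere, and neither was called. In this list 2 genes were called, Cdkn1a, which rose, and Nfkbia, which fell. Among the others, all not called, Sgk1, a kinase that acts on ion transport, was at 394, 306, 485 and 385 CPM at CT12, CT16, CT36 and CT40 and at 255, 305, 221 and 278 CPM at CT0, CT20, CT24 and CT44 (adjusted p 0.103). Fkbp5, a co-chaperone of the glucocorticoid receptor, was at 26.7, 20.3 and 27.6 CPM at CT12, CT16 and CT36, but at 8.84 CPM at CT40, which lay within the late range of 7.38 to 11.2 CPM (adjusted p 0.114). Without CT16, 5 of 28 were called lower and 1 higher, against 129 and 120 of all 13498 genes tested in that fit. The part of the smooth muscle and endothelial sums given above in this list was not tested.

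Immediate early and SRF-linked genes had 10 of 27 members lower at an unadjusted p under 0.05 (10.1% of all genes), 2 higher (8.4%), and a median of −0.267. The list includes Acta2 and Tagln, which are also on the smooth muscle list that reached higher in early night. The part of vessel wall content in this list was not tested. Ier3, which is induced by growth factors and NF-κB, went from 10.1 ± 1.6 to 5.56 ± 0.839 CPM (adjusted p 0.0523). Klf6 was at 15.1 to 16.3 CPM early and at 9.8 to 12.4 CPM late, and Ier5 lay the other way, at 14.9 to 21.6 CPM early and at 25 to 33 CPM late (adjusted p 0.0577 and 0.055).

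The tissue's main tasks are the secretion of fluid and the barrier between blood and fluid. Of 44 ion transport genes tested, 0 were called by edgeR, and the median was −0.068. At an unadjusted p under 0.05, 4 lay higher and 9 lower, against 8.4% and 10.1% of all genes. Clcn2, a chloride channel, went from 13.8 ± 2.26 to 8.99 ± 1.05 CPM (adjusted p 0.0694). Kcne2, an accessory subunit of potassium channels, was at 738, 879, 799 and 958 CPM at CT12, CT16, CT36 and CT40 and at 1060 to 1150 CPM late, so that it approached its late level through the early night (adjusted p 0.0694). In 22 of the 44 the level at CT20 and CT44 was below that at CT0 and CT24 (22.8% of all genes). Of 40 barrier and transporter genes, 0 were called, and the median was −0.123. At an unadjusted p under 0.05, 5 lay higher (8.4% of all genes) and 12 lower (10.1%). The organic anion transporter gene Slco1a5 went from 43.8 ± 3.18 to 35.8 ± 1.47 CPM (adjusted p 0.0676). The phosphate transporter gene Slc20a2 was at 127 to 142 CPM early, at 159 and 150 CPM at CT20 and CT44, and at 228 and 222 CPM at CT0 and CT24 (adjusted p 0.111).

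Of 50 genes for secreted signals and receptors, Nfkbia was the 1 called, and the median was −0.018. At an unadjusted p under 0.05, 7 lay higher (8.4% of all genes) and 14 lower (10.1%). Of 33 Wnt pathway genes, Dvl3 rose and Nfatc2 fell, with a median of −0.044. Both lists hold genes that the study had named as rhythmic in these Ctrl mice, such as Wnt5b, Il1r1 and Nfatc2. Their counts beside the share of all genes are therefore no independent support for a change. Wnt5b, a secreted Wnt ligand, was at 8.75, 6.54, 9.24 and 4.66 CPM at CT12, CT16, CT36 and CT40 and at 2.37 to 3.5 CPM late (adjusted p 0.0523). Il1r1, the interleukin-1 receptor, was at 18.2, 30.9, 20 and 28.2 CPM early and at 35.4 to 41.1 CPM late (adjusted p 0.0999).

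In SCNx mice the same contrast called 0 genes by edgeR, where the smallest adjusted p was 0.719 and 939 genes (6.88%) had an unadjusted p under 0.05. DESeq2 called 15. Over the 44 genes called in Ctrl, the median size of the change was 0.124 log2 units in SCNx against 0.573 in Ctrl. Over all genes tested it was 0.0746 in SCNx and 0.0992 in Ctrl. The 44 were picked by their change in Ctrl, which by itself favours a larger size there. In SCNx, 8 of the 44 had the sign seen in Ctrl, and 0 had all 4 late libraries beyond the 4 early ones in that direction. Their level in SCNx lay between the windows of Ctrl. For 43 of the 44 genes the mean of the 8 SCNx libraries was between the early and the late mean of Ctrl, the exception being Tmem200c, and for 29 of the 44 all 8 SCNx libraries lay inside the outermost Ctrl libraries. Because the 44 were picked for their separation in Ctrl, an unchanging SCNx level could lie between the windows for that reason alone. The share of all genes in such a position was not computed. Arntl ran from 10.2 to 21.6 CPM in SCNx, and Nr1d2 from 77.2 to 117 CPM. The median over the 14 Nr1d, PAR bZIP, Per and E-box-driven genes was 0.103 in SCNx.

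**Figure D5:**
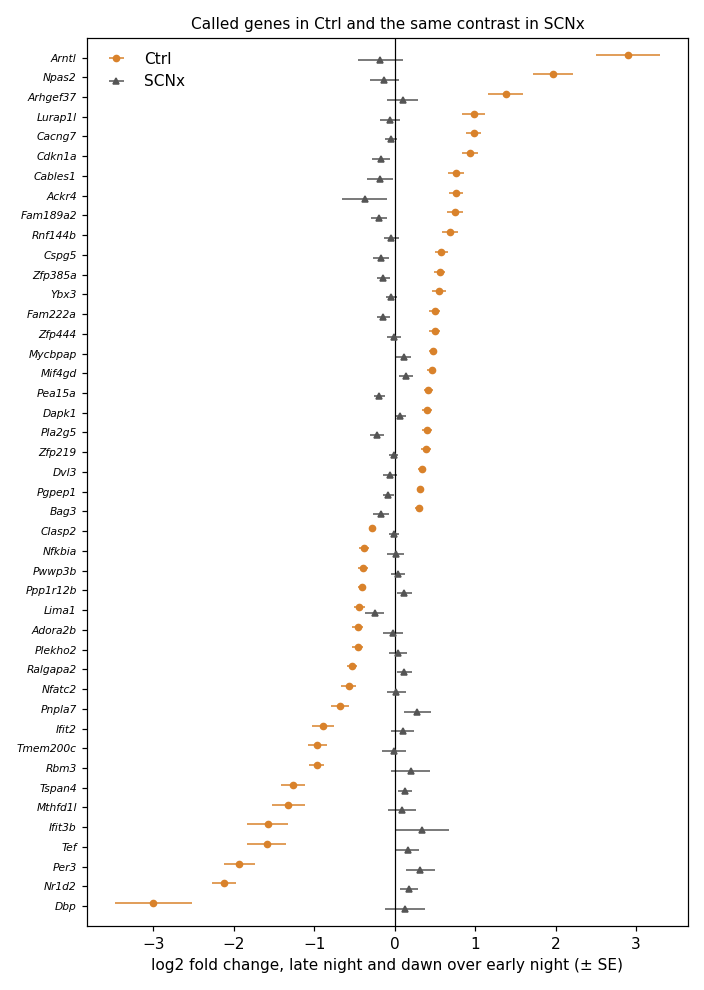
Log2 fold change between late night and dawn and early night (horizontal axis, bars ± SE of the fit) for the 44 genes called in Ctrl (orange circles) and the same genes in SCNx (grey triangles), ordered by the change in Ctrl. In Ctrl the changes run from −3 for Dbp to 2.9 for Arntl, and in SCNx they lie close to 0, with 8 of 44 on the side of Ctrl.

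The difference of the late minus early change between the arms was tested directly over the 16 libraries. It was called for 65 genes (0.476%), 40 with a higher and 25 with a lower change in Ctrl, and 24 of the 44 genes called in Ctrl were among them. The test used the same Ctrl libraries that picked the 44, so this overlap is no independent support. The 4 smallest p-values belonged to Nr1d2, Cacng7, Per3 and Tspan4, followed by Cdkn1a. For Nr1d2 the change differed by −2.3 log2 units, Ctrl minus SCNx (adjusted p 0.000144). For Cacng7 it was 1.04 (adjusted p 0.00293), for Per3 −2.25 (adjusted p 0.00554), for Cdkn1a 1.12 (adjusted p 0.00876) and for Tspan4 −1.39 (adjusted p 0.00876). Arntl, Npas2, Dbp and Tef also differed, by 3.08, 2.1, −3.13 and −1.75 (adjusted p 0.0267, 0.0155, 0.0335 and 0.0267). For Rbm3 the difference of −1.17 was not called (adjusted p 0.0763), and in SCNx it ran from 40.8 to 97.6 CPM. Outside the 44, the immediate early genes Ier3, Klf6 and Ier5, named with their values seen, differed too (adjusted p 0.0267, 0.0373 and 0.0385).

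The count of differences depended on single mice of both arms. Without 1 Ctrl library it was 9 for CT24, 11 for CT12, 12 for CT36, 16 for CT0, 31 for CT20, 91 for CT44, 104 for CT16 and 191 for CT40. Without 1 SCNx library it was 12 for CT12, 14 each for CT16 and CT24, 15 for CT44, 21 for CT40, 37 for CT36, 72 for CT0 and 79 for CT20. With both liver-containing libraries left out, Ctrl CT16 and SCNx CT0, 110 genes were called, of which 55 were among the 65.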

How the data were processed

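RNA of the choroid plexus of single mice had been sequenced as single-end reads. Per the labels and the study's methods, the authors depleted rRNA, enriched polyadenylated RNA, prepared libraries with the KAPA mRNA HyperPrep kit, ran nf-core/rnaseq against GRCm39 and deposited Salmon's estimated counts per gene, not normalized. The submitters' processing notes also name STAR, Salmon 1.9.0, SAMtools 1.16.1, cutadapt 3.4 and StringTie 2.2.1. The 2 KO libraries were not used here.

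The deposited expected counts were rounded, and genes with a mean of at least 1 CPM over the 8 Ctrl libraries were tested (13655 of 55416). Library sizes and TMM factors came from edgeR 4.0.16 under R 4.3.3. The CPM values printed use TMM factors over all 24 Ctrl and SCNx libraries. Groups were fitted without covariates by the quasi-likelihood F test of edgeR, with p-values adjusted after Benjamini and Hochberg at 0.05, in Ctrl, in SCNx and for the difference between them over 16 libraries. The standard error is the fold change divided by the root of the F statistic. The code was tested on simulated data. Alternatives were DESeq2 1.42.0, its size factors, limma-trend (limma 3.58.1), other minima, other windows, the cycle as a block, pooled fits and each library left out. The 22 function lists and 11 marker lists and the members were chosen with earlier results of these data known. Several lists, among them ER folding, histones, Wnt and secreted signals, hold genes that the study named as rhythmic from these Ctrl libraries. Counts of such lists beside the share of all genes are no independent support. Motifs were searched with Python 3.11.15 and figures drawn with matplotlib 3.10.9. The genes named are the 5 with the smallest p and the 5 with the largest fold change in each direction among calls without overlap in either cycle, up to 4 called members of each list by p or otherwise the 1 with the smallest p, all tested clock genes, and the 4 with the smallest p for the difference. The rule also asked for called genes that lose the call without CT16, and there were 0. Other names were chosen with their values seen. Some genes that the rule names are not reported here. At 38751162 counts or more per library, 1 CPM is well above 1 count, and the number of mice limits the precision. P-values measure the spread between single mice of unlike hours.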

Additional observations from a re-analysis of the deposited data

Results flagged for a closer look

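Of 120 groups of 4 Ctrl libraries examined, for the named genes and for the marker lists, 11 had 1 library far from the other 3, where chance gives about 1 in 20. In late night and dawn, Usp2 was at 147 CPM at CT24 against 171 to 172 CPM in the others, and Sec11c at 35.1 CPM at CT0 against 37.1 to 37.5 CPM. In early night, CT40 stood apart for Sec11c (34.2 against 32.1 to 32.3 CPM), Mycbpap (50.3 against 46.1 to 46.7 CPM) and Ackr4 (42 against 32.5 to 33.8 CPM). Among the marker sums, hepatocyte genes reached 4180 CPM at CT16 (45.8 to 98.7 in the other early libraries). At CT44 neuron markers were at 61.8 CPM (15.6 to 21 in the other late libraries), oligodendrocyte markers at 148 CPM (79.6 to 83.3) and epithelial markers at 156000 CPM (165000 to 166000). At CT24 fibroblast markers were at 375 CPM (345 to 349) and endothelial markers at 95.7 CPM (118 to 121).

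The late minus early change differed between Ctrl and SCNx for 12 of the named genes by the test of the difference itself. It was higher in Ctrl, in log2 units, for Arntl (3.08), Npas2 (2.1), Cdkn1a (1.12), Lurap1l (1.05) and Cacng7 (1.04). It was lower in Ctrl for Dbp (−3.13), Nr1d2 (−2.3), Per3 (−2.25), Tef (−1.75), Tspan4 (−1.39), Ier3 (−1.11) and Ppp1r12b (−0.53). Many of the named genes were picked by their change in these same Ctrl libraries, which favours them in this test.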

How the results depend on the processing

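The 44 genes called in Ctrl by edgeR (24 higher, 20 lower) became 832 (357 and 475) with DESeq2, 118 (60 and 58) with limma-trend, 93 (49 and 44) at a minimum of 5 CPM, 93 of them without overlap in either cycle, and 166 (76 and 90) with no minimum. They became 11 (5 and 6) with the cycle as a block, 83 (42 and 41) in a fit of all 12 Ctrl libraries, 299 (165 and 134) in a fit with SCNx, 0 (0 and 0) for CT20 and CT44 alone, and 42 for CT0 and CT24 alone, of which 15 were among the 44. Chosen after seeing the data, leaving out both CT16 and CT40 gave 1093 (502 and 591), and an adjusted p under 0.1 gave 356 (165 and 191). With each library left out the counts ran from 1 to 409 in all, from 0 to 149 higher and from 1 to 260 lower, and the same 1 to 409 without overlap. The cause of these shifts was not tested. In SCNx DESeq2 called 15 (13 and 2), and 0 were called under every other setting run. The 65 differences between the arms became 419 (231 and 188) with DESeq2, 35 (25 and 10) with no minimum and 110 (57 and 53) without Ctrl CT16 and SCNx CT0, the last chosen after seeing the data, and ran from 9 to 191 in all, from 6 to 106 higher and from 3 to 85 lower with each library left out. Among genes named by rule, no called fold change took the other sign under any alternative, but values not called did, 1 in Ctrl (Cry1, 0.2, and −0.17 for CT0 and CT24 alone), 26 in SCNx and 3 of the difference. For the 44 genes called in Ctrl, the lack of overlap left little room for another sign there. Depth was high in every library, and the limit is 4 mice in a group, at unlike hours.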

Other observations

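Further lists of protein handling held 0 calls by edgeR. Over all genes tested, 18.5% had an unadjusted p under 0.05, the share to set beside the counts below. Of 32 genes of ER-associated degradation 0 were called by edgeR, 2 had an unadjusted p under 0.05 and the median log2 fold change was 0.002. Aup1 had the smallest p, with 74.6 ± 1.71 CPM early and 81.1 ± 3.24 CPM late (adjusted p 0.146). Of 19 sensors and factors of the unfolded protein response 0 were called, 3 had an unadjusted p under 0.05 and the median was 0.037, with Creb3l1 at 43.1 ± 4.81 and 51.4 ± 4.78 CPM (adjusted p 0.173). Of 50 translocon and glycosylation genes 0 were called, and 8 lay higher and 0 lower at an unadjusted p under 0.05 (8.4% and 10.1% of all genes), with Sec11c at 32.7 ± 0.971 and 36.8 ± 1.12 CPM (adjusted p 0.112). In 30 of these 50 the level at CT16 and CT40 was above that at CT12 and CT36 (19.8% of all genes). Of 47 ER to Golgi trafficking genes 0 were called and 4 had an unadjusted p under 0.05, with Copg2 at 81.1 ± 3.94 and 71.5 ± 4.51 CPM (adjusted p 0.139). Of 23 mitochondrial chaperone and CCT genes 0 were called and 1 had an unadjusted p under 0.05, Pfdn4, at 6.77 ± 0.259 and 7.88 ± 0.563 CPM (adjusted p 0.181).

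Of 24 ATF4 and amino acid genes 0 were called and 6 had an unadjusted p under 0.05 (18.5% of all genes). Asns, asparagine synthetase, was at 1.89 ± 0.187 and 2.76 ± 0.168 CPM (adjusted p 0.112 by edgeR). Of 24 genes of feeding and insulin cues 0 were called, and 2 lay higher and 8 lower at an unadjusted p under 0.05 (8.4% and 10.1% of all genes). The glucose transporter Slc2a4 was at 4.94 ± 1.05 and 3.05 ± 0.487 CPM (adjusted p 0.108 by edgeR). Of 20 cell cycle genes Cdkn1a was the 1 called.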
